A study of Mus musculus with 9 samples.

Results

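The clustered core histone genes were taken as all mouse genes whose symbol is H2ac, H2bc, H3c or H4c with a number, or whose older name begins Hist1h, Hist2h, Hist3h or Hist4h for H2a, H2b, H3 or H4. Linker histone genes were left out. This gave 61 protein-coding genes of 24181 genes in the count tables, of which 57 matched by symbol and 4 by the older name alone (H2aw, H2bu2, H4f16 and H4bc24, the last an H2B gene by its older name Hist1h2br). Another 3 pseudogenes that the names also fit were left out. The 61 genes comprise 18 H2A, 18 H2B, 12 H3 and 13 H4 genes. By the RefSeq annotation of GRCm38.p6, 48 lie on chromosome 13, 10 on chromosome 3, 2 on chromosome 11 and 1 on chromosome 6.

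Core histones H2A, H2B, H3 and H4 form the protein spool of the nucleosome, around which DNA is wrapped. Cells make most of them in S phase, when new DNA has to be packaged, from replication-dependent genes that lie in clusters and mostly lack introns. Their messenger RNAs end in a conserved stem-loop bound by the stem-loop binding protein Slbp instead of a poly(A) tail, so libraries made by poly(A) selection keep little of them. What such libraries keep is RNA from these genes that carries a poly(A) tail. Polyadenylated forms of some of these genes, made by reading past the stem-loop or by splicing around it, are known from differentiated and non-dividing cells.

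The study, on nucleosome spacing in neurons and glia, measured poly(A)-selected RNA in 9 libraries, 3 from separate biological replicates of each of 3 purified primary mouse cell types in culture. Astrocytes came from cortex at postnatal day 1 to 3 and were cultured for about 21 days to confluence. DRG neurons, the sensory neurons of the dorsal root ganglion, came from embryos at day 13.5 and were cultured for about 2 weeks. OPC, the oligodendrocyte precursor cells, came from cortex at postnatal day 6 to 9 and were cultured for 6 to 7 days. No genotype, strain or treatment that would set the groups apart was given. Pups of either sex were used for the astrocytes and OPC. Donor age and time in culture change with cell type in every comparison, as does tissue in those with DRG cultures, so these cannot be told apart. The labels do not say whether animals were pooled.

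Assigned counts ran from 30710093 to 53594210 per library, and the 61 genes took only 0.00342 to 0.0179% of them, 37048 reads in all. Levels are given as CPM, the reads of a gene scaled to the assigned reads of its library, with library sizes adjusted by TMM factors (a trimmed mean of ratios between libraries). Most listed markers of the 3 cell types were highest under their own label. Tubb3, a neuronal tubulin, was at 5458 to 7276 CPM in DRG libraries and at most 127 elsewhere. The astrocyte filament gene Gfap was at 2392 to 2955 in astrocytes and at most 2.50 elsewhere. Olig2, a transcription factor of the oligodendrocyte lineage, was at 1234 to 1463 in OPC and at most 179 elsewhere. Of 8 neuron markers, Prph was at 0 in every library and Rbfox3 reached at most 0.0842 CPM in DRG libraries. Against their label, the astrocyte markers Aldoc and Slc1a2 were highest in DRG cultures (mean 573 CPM, 361 in astrocytes) and in OPC (4.43, 3.66 in astrocytes). The OPC markers Lhfpl3 and C1ql1 were highest in DRG cultures (2.98, 0.0927 in OPC) and in astrocytes (67.1, 61.6 in OPC). Astrocytes replicate 1 stood apart from its group: the 10 microglia markers summed to 4146 CPM in it against 797 and 750.3 in replicates 2 and 3, and the 8 fibroblast and mural markers to 1153 against 8256 and 9747. OPC replicate 3 held 414 CPM of the microglia markers, against 93.8 and 162 in OPC replicates 1 and 2. OPC replicate 1 held 145 CPM of the 8 oligodendrocyte markers, against 54.2 and 59.9 in OPC replicates 2 and 3. DRG libraries held 245 to 537 CPM of the fibroblast and mural markers, and OPC libraries at most 2.82.

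The annotated 3' ends of these genes bear on what a poly(A) library can hold. The stem-loop was therefore searched in the longest GENCODE vM21 transcript matched to each gene. The histone stem-loop consensus was present in the transcript of 41 of the 61 genes and in 67 of 141698 other mouse transcripts (0.0473%). In 22 genes the transcript ended within 100 nucleotides after it, and in 19 it ran on further. The remaining 20 were 5 without the stem-loop and 15 without an annotated 3' UTR. The stem-loops of 5 well-covered genes are given as DNA letters of the RNA strand, with the stem and loop in capitals. H2bu2, H2aw and H4c9 are genes whose annotated transcript runs on past it, by 169, 1643 and 330 nucleotides. In H4c8 and H2ac20 the transcript ends 46 and 57 nucleotides after it.
H2bu2: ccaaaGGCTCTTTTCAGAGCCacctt
H2aw: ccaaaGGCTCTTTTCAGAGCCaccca
H4c9: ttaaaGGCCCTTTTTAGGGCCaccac
H4c8: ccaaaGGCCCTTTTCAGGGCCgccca
H2ac20: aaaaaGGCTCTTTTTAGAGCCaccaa

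Reads were spread very unevenly over these classes. The 24 genes whose matched GENCODE transcript lacks the stem-loop or runs on past it held 91.3% of the reads of the 61 genes. Among these 24, 4 genes named below held 81.3% of the reads of the 61. The 5 genes without a stem-loop held 58.8%, and the 19 whose transcript runs on past it 32.5%. The 22 genes that end at the stem-loop held 5.59%, and the 15 without an annotated 3' UTR 3.11%. The classes also differ in sequence shared with other genes. The share of 50-letter windows found in no other gene was at most 61.4% in genes that end at the stem-loop, and 100% in H2bc21. Reads that map to more than 1 place are not assigned, and the part of this in the split was not tested. A poly(A) signal, written AATAAA or ATTAAA, stood in the last 50 nucleotides of 15 of the 61 transcripts, which held 43.1% of the reads, and of 33.7% of all 141767 mouse transcripts. Of the 22 genes ending at the stem-loop, 1 had it, H4c8. Whether reads came from tailed RNA of these ends was not tested. For 33 genes the RefSeq span of GRCm38.p6 is shorter than the matched transcript. If the submitters counted over these spans, reads further downstream were not counted, which was not checked. H2aw has 508 against 2146 nucleotides and H2bu2 462 against 614. In H2aw, H2bu2 and H4c9 the RefSeq span ends within a few nucleotides after the stem-loop. Counted over these spans, their reads would not show RNA that runs on, and the split by class depends on the annotation used.

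A single gene dominated. H2bc4 (Hist1h2bc), an H2B gene at chr13:23684199-23692480, held 48.9% of all reads of the 61 genes. Together with H2aw (Hist3h2a, chr11:58954685-58955192), H2bc21 (Hist2h2be, chr3:96221072-96223738) and H2bu2 (Hist3h2ba, chr11:58948911-58949372) it held 81.3%. By family, H2B genes held 72.6%, H2A genes 15.3%, H4 genes 11% and H3 genes 1.05%. The matched transcript of H2bc4 has 2 exons, at chr13:23684199-23684621 and chr13:23692176-23692908, and is 1 of the 5 without a stem-loop. Of these 5, 4 had a poly(A) signal in the last 50 nucleotides, and H2bc4 had none. Its reads fell on 2 RefSeq accessions, almost all on 1 of them, and reads shared by both were set aside in counting, so the files do not show from which exon they came. H2bc21 is the other gene of this class with many reads. Its transcript is a single exon with a 3' UTR of 2192 nucleotides.

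At the other end, 9 genes had 0 reads in all 9 libraries: H3c15, H2ac18, H3c14, H2bc23, H2ac23, H4c18, H2ac24, H4bc24 and H2ac1. Near-identical copies are common among these genes. In 8 of the 9 the accession is placed at more than 1 position of the genome, which was so for 1 of the 52 genes with reads. The median share of 50-letter windows found in no other gene was 6.93% in the 9 genes and 50.6% in the 52. Reads that map to more than 1 place were 7.49 to 13.6% of all reads and are not assigned, so a count of 0 in these genes says little about their RNA. H2ac1 was the exception, at 0 with nearly all of its windows found nowhere else.

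**Figure D1:**
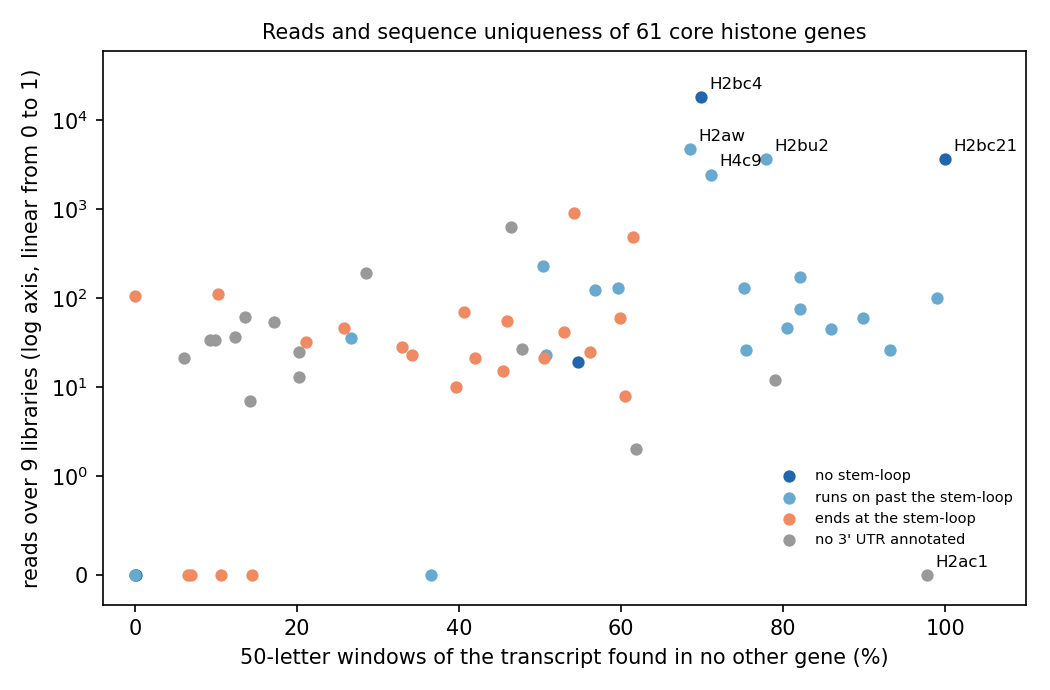
Reads summed over the 9 libraries (vertical, log axis, linear from 0 to 1) against the share of 50-letter windows of the matched transcript that no other gene holds (horizontal, percent), 1 point for each of the 61 core histone genes, coloured by annotated 3' end. The 5 genes with the most reads all lack the stem-loop or run on past it in the matched transcript. H2ac1 is the one gene at 0 reads with a share near 100%.

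Promoters of 56 of the 61 genes were in the RefSeq table (GRCm38.p6), as windows that reach from upstream of the start to just past it. The window of H2ac6 is shown because it covers the 239 nucleotides between H2ac6 and H2bc4, which are transcribed away from each other. Those of H2bu2 and H4c9 are shown because these genes differed strongly between cell types in opposite directions. Motifs were searched on both strands and are in capitals: the octamer ATTTGCAT, CCAAT and TATAAA. No motif overlaps another in these windows. The windows are chr13:23683910-23684209 (minus strand), chr11:58948661-58948960 (plus strand) and chr13:22041313-22041612 (minus strand).
H2ac6: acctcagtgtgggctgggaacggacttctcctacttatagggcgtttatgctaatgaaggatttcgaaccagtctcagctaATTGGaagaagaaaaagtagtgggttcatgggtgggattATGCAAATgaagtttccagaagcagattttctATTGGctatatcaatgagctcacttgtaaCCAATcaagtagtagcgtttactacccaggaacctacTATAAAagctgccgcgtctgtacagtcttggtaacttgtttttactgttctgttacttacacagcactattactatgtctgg
H2bu2: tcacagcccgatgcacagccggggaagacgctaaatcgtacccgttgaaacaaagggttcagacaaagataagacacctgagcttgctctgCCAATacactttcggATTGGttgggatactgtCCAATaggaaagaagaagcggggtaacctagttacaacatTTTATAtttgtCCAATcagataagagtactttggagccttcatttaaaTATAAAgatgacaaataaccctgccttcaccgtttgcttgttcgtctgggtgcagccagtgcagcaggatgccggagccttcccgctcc
H4c9: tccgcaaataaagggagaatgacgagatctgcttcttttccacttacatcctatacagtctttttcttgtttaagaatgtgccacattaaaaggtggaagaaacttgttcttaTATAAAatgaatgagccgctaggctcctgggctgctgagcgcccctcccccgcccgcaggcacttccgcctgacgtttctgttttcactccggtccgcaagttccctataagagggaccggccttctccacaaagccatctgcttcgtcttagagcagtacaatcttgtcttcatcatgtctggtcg

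The octamer was found in 7 of 18 H2A and 7 of 17 H2B windows, in 0 of 10 H3 and 0 of 12 H4 windows, and in 1.74% of all 32851 promoter windows. CCAAT was in all H2A, H2B and H3 windows and in 3 of 12 H4 windows, against 37.4% of all windows. TATAAA was in 11 of 18 H2A, 8 of 17 H2B, 4 of 10 H3 and 8 of 12 H4 windows, against 13.6% of all. Windows of genes that lie back to back overlap, so most of their letters are shared. H2bc4 had no window of its own. The stretch between H2ac6 and H2bc4, read from the H2ac6 window, holds 1 octamer, 3 CCAAT and 1 TATAAA. H2ac6 had 45 reads over the 9 libraries and H2bc4 18124, a 403-fold difference in counts. Among 12 such H2A and H2B pairs within 500 nucleotides, 9 had reads on both genes. In H2ac20 and H2bc21 the counts differed 7.52-fold, and in the other 7 pairs by 1.22 to 2.71-fold. These counts are not scaled to length.

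Levels and tests are given first for the H2B genes that carried most reads. H2bc4 was at 78.1, 63.4 and 85.4 CPM in astrocyte libraries, at 100, 38.9 and 69.2 in DRG libraries and at 5.97, 3.20 and 7.27 in OPC. All 6 astrocyte and DRG libraries lay well above all OPC libraries, and DRG overlapped astrocytes. It was 13.8-fold lower in OPC compared with astrocytes (log2 fold change -3.79, SE 0.42, adjusted p = 1.32e-04 by edgeR's quasi-likelihood test with Benjamini-Hochberg adjustment, as for every adjusted p). It was 12.7-fold higher in DRG cultures compared with OPC (3.66, SE 0.42, adjusted p = 8.81e-05 by edgeR). DRG cultures and astrocytes were not told apart (-0.13, SE 0.37, adjusted p = 0.790 by edgeR). In bulk RNA, fewer cells that hold a transcript and less of it per cell cannot be told apart.

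H2bu2, an H2B gene on chromosome 11 outside the main clusters, ran the other way. It was at 0.621, 1.23 and 1.52 CPM in astrocyte libraries, at 10.7, 5.68 and 6.69 in DRG libraries and at 23.8, 12.6 and 23.8 in OPC. The ranges of the cell types did not overlap. It was 17.8-fold higher in OPC compared with astrocytes (log2 fold change 4.16, SE 0.47, adjusted p = 1.52e-04 by edgeR; 3.56 without Astrocytes replicate 1 and OPC replicate 3 together) and 6.84-fold higher in DRG cultures compared with astrocytes (2.77, SE 0.45, adjusted p = 6.37e-04 by edgeR). DRG cultures were 2.61-fold below OPC (-1.38, SE 0.42, adjusted p = 0.0178 by edgeR), a call that ended in 6 of 17 alternatives. It ended without DRG replicate 2 (0.0690), DRG replicate 3 (0.0619), OPC replicate 1 (0.0516) or OPC replicate 3 (0.108), without Astrocytes replicate 1 and OPC replicate 3 together (0.0556) and with the length trend removed (0.0561), adjusted p by edgeR. The ratio of H2bc4 to H2bu2 reads was 126, 51.3 and 56.2 in astrocytes, 9.38, 6.84 and 10.4 in DRG cultures, and 0.251, 0.254 and 0.306 in OPC. H2bu2 thus outnumbered H2bc4 in OPC libraries alone.

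H2bc21, whose annotated transcript is a long single exon, followed another order. It was at 23.5, 16.6 and 14.1 CPM in astrocyte libraries, at 2.77, 1.96 and 2.12 in DRG libraries and at 8.79, 5.11 and 7.12 in OPC, with no overlap. It was 7.92-fold lower in DRG cultures compared with astrocytes (log2 fold change -2.99, SE 0.34, adjusted p = 8.14e-05 by edgeR), 3.07-fold lower in DRG cultures compared with OPC (adjusted p = 0.00211 by edgeR) and 2.58-fold lower in OPC compared with astrocytes (adjusted p = 0.00607 by edgeR). H2bc18 (Hist2h2bb, chr3:96269700-96270192) was highest in DRG cultures. It was at 1.11, 0.831 and 2.10 CPM in astrocyte libraries, at 3.96, 2.74 and 4.96 in DRG libraries and at 0.156, 0.224 and 0.120 in OPC. None of these ranges overlapped. H2bc18 had only 7, 11 and 5 reads in the OPC libraries. It was 22.7-fold higher in DRG cultures compared with OPC (4.51, SE 0.52, adjusted p = 9.23e-05 by edgeR) and 2.89-fold higher than in astrocytes (1.53, SE 0.44, adjusted p = 0.0145 by edgeR). The latter call ended without Astrocytes replicate 2 (adjusted p = 0.0510 by edgeR) or DRG replicate 3 (adjusted p = 0.0548 by edgeR).

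The lesser H2B genes H2bc8 and H2bc6 lay under 2 CPM in every library. H2bc8 was at 0.621, 0.974 and 0.995 CPM in astrocyte libraries, at 0.305, 0.863 and 1.14 in DRG libraries and at 0.0671, 0.142 and 0.313 in OPC. The OPC values are 3, 7 and 13 reads. H2bc8 was 4.92-fold lower in OPC compared with astrocytes (adjusted p = 0.0151 by edgeR) and 4.42-fold higher in DRG cultures compared with OPC (adjusted p = 0.0174 by edgeR), and these calls ended in 1 and 3 of 17 alternatives. Without OPC replicate 3 the log2 values moved from -2.30 and 2.15 to -3.14 and 3.08, and the calls held. The call against astrocytes ended without OPC replicate 2 (0.0606), and that of DRG cultures against OPC without OPC replicate 1 (0.0553), OPC replicate 2 (0.0666) or DRG replicate 3 (0.0675), adjusted p by edgeR. H2bc6 was at 1.69, 0.427 and 0.581 CPM in astrocyte libraries, at 0.406, 0.253 and 0.284 in DRG libraries and at 0.0224, 0.0611 and 0.0722 in OPC. Its high value in Astrocytes replicate 1 came from 1 of its 3 accessions, with 73 reads against 6 and 9 in replicates 2 and 3. It was 16.6-fold lower in OPC compared with astrocytes (-4.06, SE 0.70, adjusted p = 0.00138 by edgeR), and -3.21 without Astrocytes replicate 1 (adjusted p = 0.00207 by edgeR). It was 5.74-fold higher in DRG cultures compared with OPC (adjusted p = 0.0133 by edgeR). H2bc6 had only 1, 3 and 3 reads in the OPC libraries, so the sizes of both folds are uncertain. Its call of lower in DRG cultures compared with astrocytes (-1.53, SE 0.59, adjusted p = 0.0484 by edgeR) ended in 14 of 17 alternatives, and the value was -0.70 without Astrocytes replicate 1 (adjusted p = 0.262 by edgeR).

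Among H2A genes, H2aw was the most abundant and varied least. It was at 12.8, 16.6 and 18.5 CPM in astrocyte libraries, at 14.4, 7.94 and 10.9 in DRG libraries and at 13.0, 6.47 and 12.6 in OPC. The 3 ranges overlapped, and no comparison passed the test, with log2 fold changes of -0.53, 0.05 and -0.58 and adjusted p of 0.214, 0.904 and 0.188 by edgeR, in the order DRG against astrocytes, DRG against OPC and OPC against astrocytes. H2ac20 (Hist2h2ac, chr3:96220413-96220880), the neighbour of H2bc21, was at 0.583, 3.66 and 4.31 CPM in astrocyte libraries, at 0.575, 0.926 and 1.45 in DRG libraries and at 0.179, 0.183 and 0.265 in OPC. Astrocytes replicate 1 held 0.146 of the mean of replicates 2 and 3, and lay within the DRG range. In the OPC libraries H2ac20 had 8, 9 and 11 reads. H2ac20 was 13.5-fold lower in OPC compared with astrocytes (-3.75, SE 0.75, adjusted p = 0.00288 by edgeR). It was 4.68-fold higher in DRG cultures compared with OPC (adjusted p = 0.0246 by edgeR), a call lost when OPC replicate 1 (0.0714), OPC replicate 2 (0.0778) or DRG replicate 3 (0.0810) was left out, adjusted p by edgeR. DRG cultures against astrocytes did not pass with all libraries (-1.53, SE 0.67, adjusted p = 0.0754 by edgeR) and passed without Astrocytes replicate 1 (-2.02, adjusted p = 0.00380 by edgeR).

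The H4 genes with most reads were highest in astrocytes. H4c9 (Hist1h4i, chr13:22040960-22041362) was at 14.3, 11.3 and 20.9 CPM in astrocyte libraries, at 3.32, 2.06 and 3.69 in DRG libraries and at 0.626, 0.936 and 1.11 in OPC. The groups were fully separate, with a 17.4-fold lower level in OPC compared with astrocytes (log2 fold change -4.12, SE 0.41, adjusted p = 7.90e-05 by edgeR). DRG cultures were 5.13-fold below astrocytes (-2.36, SE 0.38, adjusted p = 6.34e-04 by edgeR) and 3.39-fold above OPC (1.76, SE 0.38, adjusted p = 0.00326 by edgeR). H4c8 (Hist1h4h, chr13:23531044-23531478) was at 4.55, 2.92 and 6.63 CPM in astrocyte libraries, at 3.55, 1.14 and 3.28 in DRG libraries and at 0.112, 0.163 and 0.192 in OPC. OPC lay below every other library, and H4c8 had only 5, 8 and 8 reads there. It was 29.7-fold lower in OPC compared with astrocytes (-4.89, SE 0.59, adjusted p = 2.17e-04 by edgeR) and 16.7-fold higher in DRG cultures compared with OPC (4.07, SE 0.58, adjusted p = 3.09e-04 by edgeR). DRG cultures against astrocytes did not pass (-0.83, adjusted p = 0.171 by edgeR). H4c12 (Hist1h4k, chr13:21750145-21750553) was at 0.712 to 1.49 CPM in astrocytes, 0.237 to 0.358 in DRG cultures and 0.0481 to 0.204 in OPC. In the OPC libraries it had 8, 10 and 2 reads. Its level was 7.26-fold lower in OPC (adjusted p = 0.00232 by edgeR) and 3.60-fold lower in DRG cultures (adjusted p = 0.0125 by edgeR; 0.0526 without Astrocytes replicate 3) than in astrocytes. H4c12 in DRG cultures against OPC did not pass (log2 fold change 1.01, adjusted p = 0.144 by edgeR).

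H3c4 (Hist1h3d, chr13:23575763-23576266) was the only H3 gene with enough reads to test. It was at 0.320, 0.617 and 0.774 CPM in astrocyte libraries, at 0.338, 0.253 and 0.800 in DRG libraries and at 0.0894, 0.0204 and 0.0481 in OPC. H3c4 was 10.3-fold lower in OPC compared with astrocytes (-3.37, SE 0.71, adjusted p = 0.00365 by edgeR) and 8.48-fold higher in DRG cultures compared with OPC (3.08, SE 0.71, adjusted p = 0.00459 by edgeR). The second value was 2.43 without DRG replicate 3 and 3.67 without OPC replicate 1, and the first -3.96 without OPC replicate 1. In the OPC libraries H3c4 had only 4, 1 and 2 reads, so the sizes of both folds are uncertain.

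**Figure D2:**
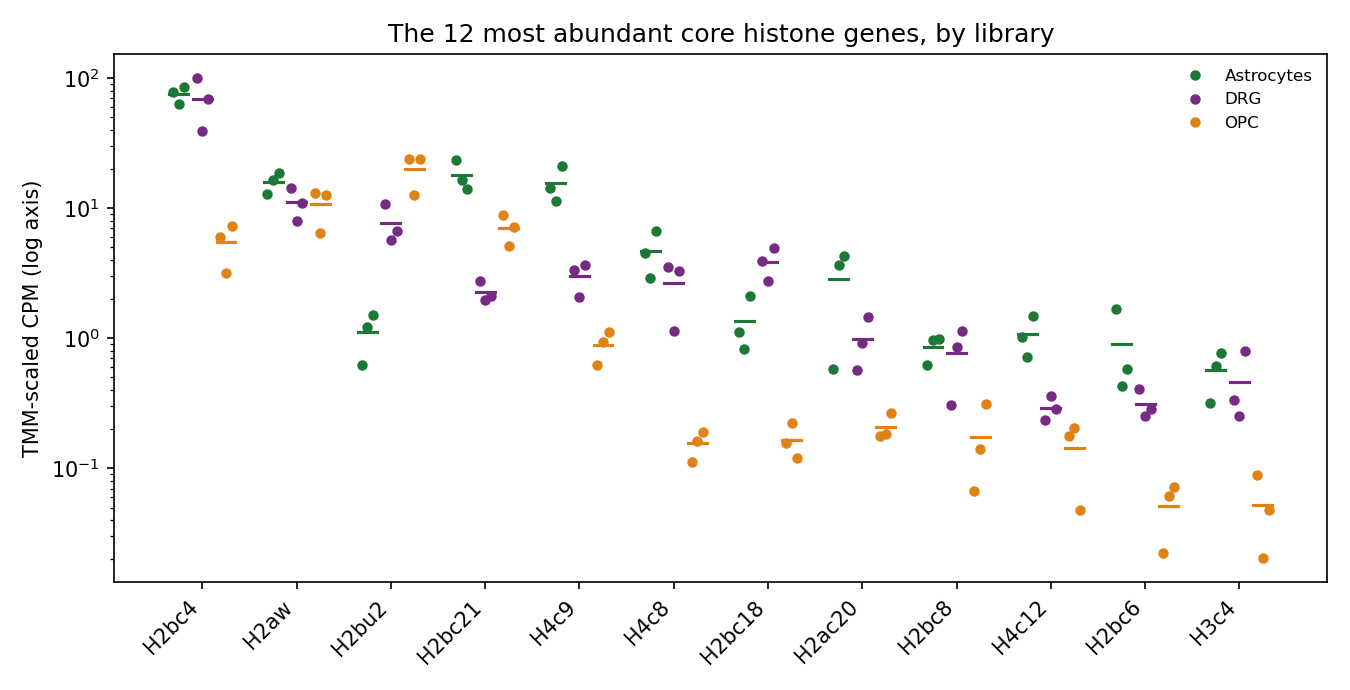
TMM-scaled CPM (vertical, log axis) of the 12 core histone genes with the highest mean, 1 point per library and a bar at the mean of each cell type, n = 3. H2bu2 is highest in OPC, H2bc18 is highest in DRG cultures, and H2aw overlaps in all cell types.

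Per kilobase of RefSeq span, which was computed for genes with 1 exon, 1 accession and over 100 reads and so not for H2bc4, the order of the levels changes with cell type. Mean CPM per kilobase in astrocytes was highest for H4c9 at 38.5, then H2aw at 31.5, H4c8 at 10.8, H2bc21 at 6.78 and H2ac20 at 6.09, and H2bu2 lay further down at 2.44. In DRG cultures, H2aw came to 21.9, H2bu2 to 16.6, H2bc18 to 7.88 and H4c9 to 7.50 CPM per kilobase. In OPC, H2bu2 came to 43.4 and H2aw to 21.1, while H2bc21 was at 2.63 and H4c9 at 2.21 CPM per kilobase. H2bu2 and H2aw thus led in OPC by a wide margin over the other measured genes of this kind. No allowance was made for sequence shared with other genes, where reads are not assigned. The share of 50-letter windows found in no other gene was 10.2% in H4c17 and 100% in H2bc21, so orders between genes are a description.

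Over the whole set, 19 genes had enough reads to be tested and 42 did not. The 42 held 2.73% of the reads, none with over 76 reads in all, and summed to 3.33 to 5.39 CPM per library in astrocytes, 0.737 to 1.93 in DRG cultures and 1.14 to 3.30 in OPC. Genes kept through a high level in 1 cell type were bound to differ there, so the counts of tested genes are a description.

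Between OPC and astrocytes, 13 of the 19 tested genes were lower in OPC, 1 was higher (H2bu2) and 5 did not pass. Of all 14848 genes tested, 25.5% were called lower and 26.3% higher. All 6 tested H4 genes were lower in OPC, as were 5 of 8 H2B genes, 1 of 4 H2A genes and the 1 H3 gene. The CPM ranges did not overlap for 16 of the 19, against 61.3% of all genes. The median log2 fold change was -2.86 over the 19 and 0.09 over all genes tested.

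Between DRG cultures and OPC, 11 of the 19 were higher in DRG cultures, 2 were lower (H2bu2 and H2bc21) and 6 did not pass, where 28.4% of all genes were called higher and 31.1% lower. The ranges of 13 did not overlap, against 67.4% of all genes. The median log2 fold change was 2.15, against -0.08 over all genes. Between DRG cultures and astrocytes, 4 of the 19 were higher in DRG cultures, 6 lower and 9 did not pass, with 27.4% of all genes called higher and 32.8% lower. The counts here lie close to the background, and the ranges of 10 of the 19 did not overlap, against 69.0% of all genes. The median was -0.48, against -0.13. The 4 higher genes were H2bu2, H2bc18 and, named here after their values were seen, H2ac8 (2.16, SE 0.81, adjusted p = 0.0431 by edgeR) and H2bc11 (1.64, SE 0.58, adjusted p = 0.0341 by edgeR). In the astrocyte libraries H2ac8 had only 1, 12 and 4 reads, and H2bc11 4, 4 and 8. Leaving out single libraries moved the 4 to 2 without Astrocytes replicate 1 or 2 and to 1 without DRG replicate 3, and the 6 lower to 10 without Astrocytes replicate 1 and to 3 without Astrocytes replicate 3. The 2 lower in DRG cultures compared with OPC became 1 without DRG replicate 2 or OPC replicate 3. With single libraries left out, 22 to 27 core histone genes were tested rather than 19. The comparisons between cell types share libraries pairwise.

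By mean CPM, OPC was the lowest of the cell types in 15 of the 19 tested genes and the highest in 1, H2bu2. Astrocytes were the highest in 14 and DRG cultures in 4. The 5 genes called in every comparison were H2bu2, H2bc21, H4c9, H2bc18 and H2bc6, and 2 were called in none, H2aw and H2bc15. DRG replicate 2 held the lowest CPM of its group in 14 of the 19.

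**Figure D3:**
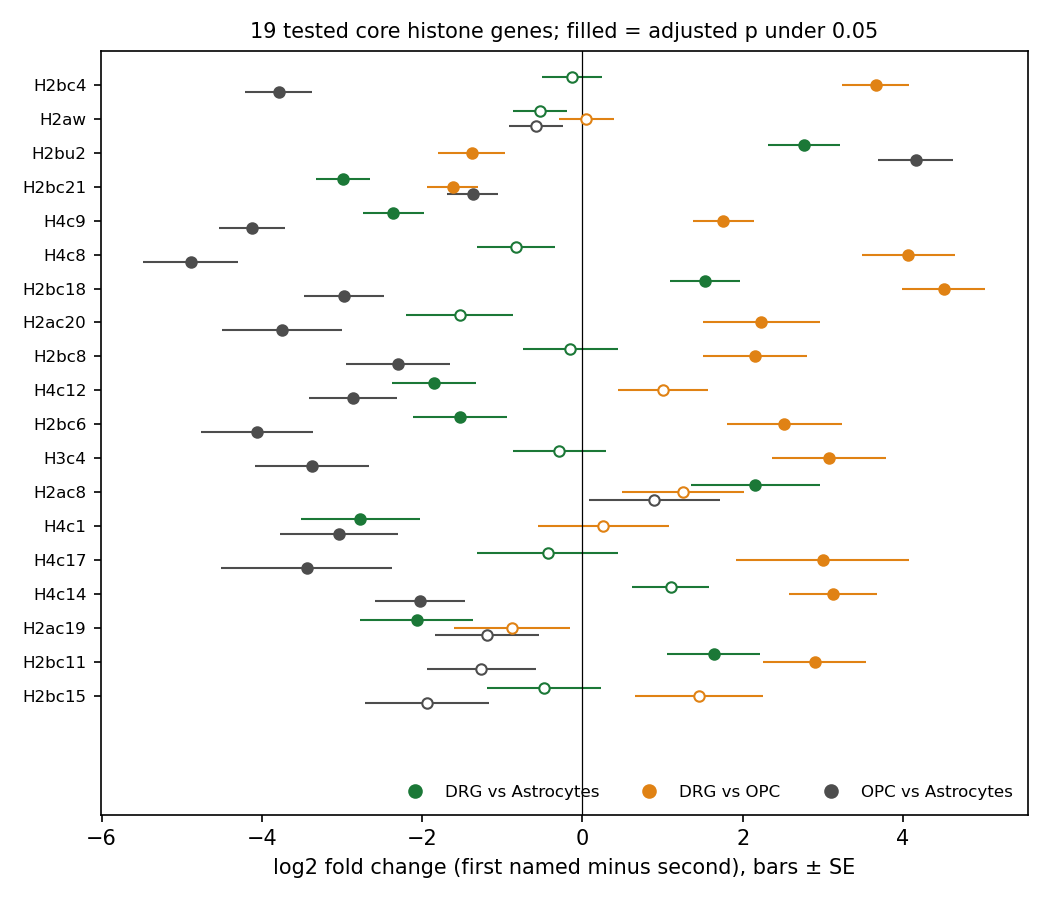
Log2 fold change (horizontal, first named minus second) of the 19 tested core histone genes in the 3 comparisons, with bars of 1 SE and filled points for an adjusted p under 0.05 by edgeR. Grey points (OPC minus astrocytes) lie left of 0 except for H2bu2 and H2ac8, and orange points (DRG minus OPC) lie right of 0 except for H2bu2, H2bc21 and H2ac19.

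The 61 genes summed to 145, 125 and 166 CPM in astrocytes (145 ± 20.4, SD, n = 3), to 144, 65.2 and 110.4 in DRG cultures (107 ± 39.8, SD, n = 3) and to 54.5, 32.8 and 57.2 in OPC (48.2 ± 13.4, SD, n = 3). Every astrocyte and DRG library lay above every OPC library, and DRG overlapped astrocytes. The ratio of group means was 2.21 for DRG cultures to OPC, 0.331 for OPC to astrocytes and 0.734 for DRG cultures to astrocytes. Without H2bc4, the sums were 69.7 ± 9.63 in astrocytes, 37.3 ± 9.65 in DRG cultures and 42.7 ± 11.4 in OPC (SD, n = 3), so the ratio of DRG cultures to OPC turned to 0.874, and that of OPC to astrocytes was 0.613. In an alternative chosen after seeing the data, without H2bc4, H2bc21, H2bu2 and H2aw together, the sum over the other 57 was 34.5 ± 10.3 CPM in astrocytes, 16.2 ± 5.35 in DRG cultures and 4.97 ± 1.80 in OPC (SD, n = 3), with ratios of 3.27 for DRG cultures to OPC and 0.144 for OPC to astrocytes. The ratio of the sums thus depended on which of the most abundant genes were kept.

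By 3' end of the matched transcript, genes without a stem-loop summed to 93.8 ± 11.9 CPM in astrocytes, 71.7 ± 31.0 in DRG cultures and 12.5 ± 3.63 in OPC (SD, n = 3). Genes that run on past the stem-loop were at 37.7 ± 7.69, 25.2 ± 6.67 and 32.8 ± 10.2 CPM in the same order. Genes that end at the stem-loop were at 7.13 CPM or more in astrocytes, 2.97 to 6.92 in DRG cultures and 0.917 to 2.62 in OPC, and those without an annotated 3' UTR at 3.80 ± 1.62 in astrocytes, 4.80 ± 1.32 in DRG cultures and 0.986 ± 0.370 in OPC. In the class that runs on past the stem-loop, with H2aw and H2bu2 as its largest members, the OPC range overlapped that of both other cell types, while the OPC mean was the lowest in each of the other 3 classes. By family, the H4 sum was 23.5 ± 7.65 CPM in astrocytes, 7.26 ± 2.73 in DRG cultures and 1.78 ± 0.459 in OPC (SD, n = 3), and the H2A sum 20.6 ± 5.57 in astrocytes and 13.1 ± 3.31 in DRG cultures, with 7.90 to 14.5 in OPC.

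These sums were set against genes of dividing cells in the same libraries. The 24 S-phase genes, among them the DNA polymerase clamp Pcna and the replicative helicase subunit Mcm5, summed to 756, 1895 and 1786 CPM in astrocytes, to 238, 237 and 220.2 in DRG cultures and to 3374, 5652 and 4888 in OPC. The 20 mitosis genes, with the proliferation marker Mki67 and the topoisomerase Top2a, summed to 293, 2965 and 1887 CPM in astrocytes, to 26.8, 20.4 and 16.7 in DRG cultures and to 4478, 7019 and 3479.6 in OPC. OPC libraries were thus the highest in dividing-cell genes and the lowest in the sum over all core histone genes. Against DRG cultures, the place of OPC in this sum depended on the genes kept. Without H2bc4, DRG cultures had the lower mean, 37.3 CPM against 42.7 in OPC, and their ranges overlapped. Without H2bc4, H2bc21, H2bu2 and H2aw, a set chosen after seeing the data, OPC had the lower mean, 4.97 CPM against 16.2 in DRG cultures. Of 23 tested S-phase genes, 20 were lower in DRG cultures compared with astrocytes and 1 higher, 21 were lower than in OPC, and 18 were higher in OPC compared with astrocytes. Of 20 mitosis genes, 18 and 20 were lower in DRG cultures compared with astrocytes and with OPC, and 7 were higher in OPC compared with astrocytes. Of all genes tested, 32.8% were lower in DRG cultures compared with astrocytes and 31.1% compared with OPC. Between OPC and astrocytes, 26.3% were higher in OPC.

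Within astrocytes, replicate 1 held 293 CPM of mitosis genes against 2965 and 1887 in replicates 2 and 3. Its core histone sum of 145 lay between theirs, at 125 and 166. Single genes differed there: H2ac20 and H2bu2 were at 0.146 and 0.452 of the mean of replicates 2 and 3, and H2bc6 and H2bc21 at 3.35 and 1.53. Microglia markers were also highest and fibroblast markers lowest in this library, and their part in these values was not tested.

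**Figure D4:**
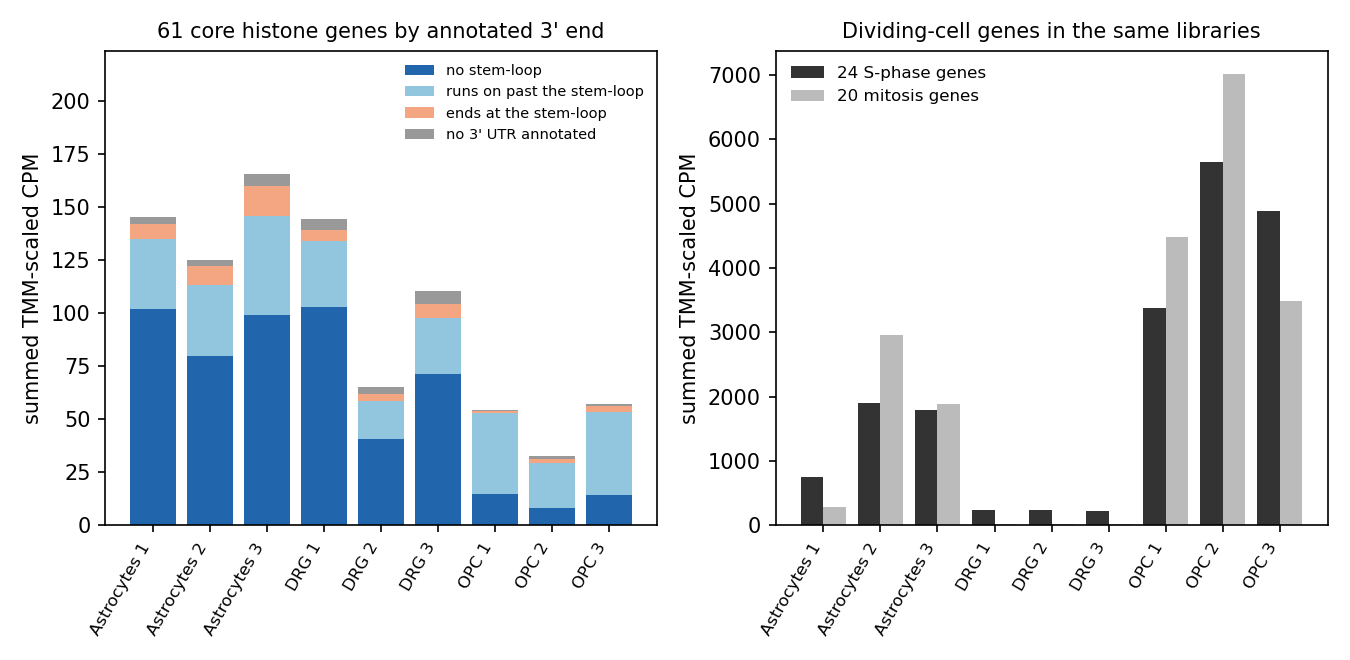
Left, summed TMM-scaled CPM of the 61 core histone genes in each library, stacked by annotated 3' end; right, summed TMM-scaled CPM of 24 S-phase and 20 mitosis genes in the same libraries. OPC libraries hold 32.8 to 57.2 CPM on the left and the largest sums on the right.

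Replacement histones, most of whose genes are expressed outside S phase too and give polyadenylated RNA, ran differently from the clustered genes. The list holds 9 genes, all tested, and H3f3a and H3f3b (both coding for histone H3.3), H2az1 and H2ax are its best known. Their sum was 1258, 1671 and 1498 CPM in astrocytes, 493, 387 and 427 in DRG cultures and 3795, 4165 and 4707 in OPC, all groups separate. All 9 were lower in DRG cultures compared with OPC, 7 were lower in DRG cultures compared with astrocytes, and 7 were higher in OPC compared with astrocytes. Over all genes tested, the shares called in these directions were 31.1, 32.8 and 26.3%. From astrocytes to OPC, H3f3b was higher by 1.45 on the log2 scale (SE 0.18, adjusted p = 2.42e-04 by edgeR) and H2az1 by 2.23 (SE 0.32, adjusted p = 4.99e-04 by edgeR). Cenpa, the centromeric H3, was lower in DRG cultures compared with astrocytes (log2 fold change -7.31, SE 0.93, adjusted p = 1.60e-04 by edgeR).

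The machinery that transcribes histone genes and cuts their RNA was also measured, with 14 of 16 listed genes tested. From astrocytes to OPC 7 were higher, in DRG cultures against OPC 7 were lower, and in DRG cultures against astrocytes 4 were higher and 3 lower. Over all genes tested, the shares called in these directions were 26.3, 31.1, 27.4 and 32.8%, and the counts are a description. Slbp was at 7.37, 7.93 and 9.34 CPM in astrocytes, 4.30, 5.01 and 5.55 in DRG cultures, and 11.1, 19.8 and 17.5 in OPC, with no overlap. It was higher in OPC compared with astrocytes by 0.98 on the log2 scale (SE 0.28, adjusted p = 0.0176 by edgeR) and lower in DRG cultures compared with OPC (-1.70, SE 0.29, adjusted p = 8.48e-04 by edgeR) and compared with astrocytes (-0.73, SE 0.28, adjusted p = 0.0497 by edgeR). Npat, the coactivator of histone gene transcription, did not pass in any comparison, with log2 fold changes of -0.79, -0.80 and 0.01 in the same order of comparisons as for H2aw. Lsm11, a subunit of the U7 particle that guides the cut after the stem-loop, was at 4.10 to 13.5 CPM in astrocytes, 52.4 to 75.7 in DRG cultures and 41.7 to 46.7 in OPC, and was higher in DRG cultures compared with astrocytes (2.91, SE 0.39, adjusted p = 2.22e-04 by edgeR). Cstf2, a factor of cleavage and polyadenylation, was lower in DRG cultures compared with OPC (-2.93, SE 0.43, adjusted p = 3.66e-04 by edgeR) and higher in OPC compared with astrocytes (1.45, SE 0.40, adjusted p = 0.0142 by edgeR).

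Of 7 histone mRNA decay genes, 3 were higher in OPC compared with astrocytes and 2 lower in DRG cultures compared with OPC. Between DRG cultures and astrocytes, 1 was higher and 2 were lower in DRG cultures. Over all genes tested, the shares called in these directions were 26.3, 31.1, 27.4 and 32.8%, so these few calls lie near the background. Eri1, an exonuclease that trims the end of the stem-loop RNA, was called in all comparisons: it was lower in DRG cultures compared with OPC (-3.13, SE 0.34, adjusted p = 6.60e-05 by edgeR) and in astrocytes (-1.78, SE 0.32, adjusted p = 0.00122 by edgeR), and higher in OPC compared with astrocytes (1.34, SE 0.32, adjusted p = 0.00662 by edgeR). Of 7 inhibitors of cyclin-dependent kinases, 2 were higher and 4 lower in DRG cultures compared with astrocytes, and 1 was higher and 4 lower than in OPC. In OPC compared with astrocytes, 3 were higher and 1 lower. The shares over all genes tested were 27.4 and 32.8%, 28.4 and 31.1%, and 26.3 and 25.5%, in the same order. Cdkn1a, which halts the cell cycle, was at 80.2, 61.8 and 46.4 CPM in DRG cultures, 17.4, 15.7 and 16.1 in astrocytes and 18.9, 32.9 and 49.8 in OPC, and the DRG and OPC ranges overlapped. It was higher in DRG cultures compared with astrocytes (log2 fold change 1.94, SE 0.35, adjusted p = 0.00119 by edgeR). Cdkn1b and Cdkn2d had the highest mean CPM of the 7. Cdkn1b was lower in DRG cultures compared with astrocytes (-1.39, SE 0.17, adjusted p = 1.30e-04 by edgeR) and with OPC (-1.37, SE 0.17, adjusted p = 1.42e-04 by edgeR). Cdkn2d was higher in DRG cultures compared with astrocytes (1.70, SE 0.35, adjusted p = 0.00242 by edgeR) and did not pass against OPC.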

How the data were processed

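Poly(A)-selected RNA of 9 libraries was sequenced with a stranded mRNA kit, per the labels' protocols. Reads were aligned with TopHat2 to mm10 and counted with HTSeq, as the submitters' processing notes name them. Tool versions, counting mode and strand setting are not given in the sources used here. Deposited values are raw counts for each RefSeq transcript accession, without normalization by the authors. Counting per transcript sets aside reads that several isoforms share (22 to 24.7% of reads were ambiguous), which lowers genes with more than 1 accession. Of 33787 accessions, 33315 were named from RefSeq GRCm38.p6 and 193 from GENCODE vM21. Counts were summed per gene.

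Tests were edgeR 4.0.16 quasi-likelihood F-tests in R 4.3.3 with TMM factors and filterByExpr (minimum count 10), on all 9 libraries with 6 residual degrees of freedom, adjusted by Benjamini-Hochberg over 14848 genes with a threshold of 0.05. Each SE is the log2 fold change divided by the root of F. The code was tested on simulated data. DESeq2 1.42.0, other scalings, no filter, a replicate block, removal of a length trend and left-out libraries or genes were the alternatives. Genes named with values were the 12 members of highest mean CPM and any called in every comparison, and of other lists the 2 of highest mean CPM, those called in every comparison, a few genes fixed by name, and any gene of the processing and replacement lists. Markers that went against their label are also named. The members, lists and tests were chosen with earlier results of these data known. Between libraries labelled as separate experiments, p-values measure the spread between these samples; whether each came from its own animals is not given. RefSeq supplied promoter windows and GENCODE vM21 the transcripts.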

Additional observations from a re-analysis of the deposited data

How the results depend on the processing

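Over the 12 named genes and 3 comparisons, 36 results gave 612 alternative values, of which 573 kept direction and side of the threshold, 30 no longer passed, 3 newly passed and 6 changed sign. None of these 6 passed the test in either form. H2aw in DRG cultures against OPC, at 0.05, was -0.07 with library size alone and -0.22 to 0.44 with single libraries left out. In DRG cultures against astrocytes with single libraries left out, H2bc4 (-0.13) was -0.48 to 0.17, H2bc8 (-0.15) -0.53 to 0.22 and H3c4 (-0.29) -0.94 to 0.03. The count of genes called higher in DRG cultures compared with astrocytes, 4, was 2 with library size alone, 2 with no filter on low counts and 2 without Astrocytes replicate 1 and OPC replicate 3 together, and 1 to 4 when single libraries were left out. The 6 called lower there were 3 to 10 with single libraries left out. The 2 called lower in DRG cultures compared with OPC were 5 with no filter, 4 with DESeq2, 1 with the length trend removed, 1 without the same 2 libraries, and 1 to 3 with single libraries left out. The 11 higher in DRG cultures compared with OPC were 8 to 11, and the 13 lower in OPC compared with astrocytes 12 to 16. The ratio of core histone sums in DRG cultures to OPC, 2.21, reversed to 0.874 without H2bc4, and that of OPC to astrocytes went from 0.331 to 0.613. Without H2bc4, H2bc21, H2bu2 and H2aw, added after seeing the data, they were 3.27 and 0.144. The number of core histone genes tested also changed, so these counts are not out of the same number. It was 19 in the main test, 52 with no filter and 48 or 49 with DESeq2. It was 22 to 27 with single libraries left out and 24 without Astrocytes replicate 1 and OPC replicate 3 together. It stayed at 19 with library size alone and with the length trend removed. The cause of the changes was not tested.

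Library size alone moved the median log2 fold change of all genes from -0.13 to -0.39 for DRG cultures against astrocytes and from -0.08 to -0.23 against OPC. Replicate numbers were not used as pairs in the main test. Same-number correlations of deviations ran from -0.04 to 0.13, and not every library correlated best with its own number. These correlations between unlike cell types cannot exclude a shared batch. With the replicate block, the counts in DRG cultures against astrocytes were 4 higher and 5 lower, against OPC 11 and 2, and in OPC against astrocytes 1 and 13. H2bc6 in DRG cultures against astrocytes then had an adjusted p of 0.0783 by edgeR. With 42 genes under the filter and reads in multiple places unassigned, depth limits what can be said of most H3 and H2A genes. A library-level floor of 3 counts is 0.0564 to 0.102 CPM, for counting error only.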
